A study of Danio rerio with 4 samples.

Results

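The peaks described here lie near the ends of the zebrafish chromosomes, in a map of open chromatin from nonCMs, the heart cells that are not cardiomyocytes. A peak was counted as an end peak when its midpoint lay within 1000000 bp (1 Mb) after the start of the first peak, or before the end of the last peak, of its chromosome. Chromosome 4 was left out. The rule uses positions only, and it found 2579 end peaks among 48698 peaks on 24 chromosomes, out of 50394 peaks in the whole matrix. The remaining 46119 peaks of the same 24 chromosomes, called other peaks here, are what the end peaks were set against.

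The nuclei came from nonCMs isolated from the hearts of wild type zebrafish, with 1 scATAC-seq library for each of 4 time points. The ventricular apex had been resected 2, 7 or 14 days before (2, 7 and 14 days post amputation, dpa), and the study describes its other ventricles, the 0 dpa library, as uninjured. The study asked which extracellular signals and genetic programs activate nonCMs as the heart regenerates. Single-cell chromatin profiling was 1 of its approaches, beside mutant and transgenic fish. No name in the matrix tied a nucleus to a library, so the nuclei of the 4 time points were pooled and no time points were compared. The matrix held 2737 nuclei with a median of 1147 open peaks each (77 to 10959), under 2731 distinct barcodes, 6 of which occurred in 2 rows. There are no replicates, so no p-value is given. Differences are set against the spread over chromosomes or ends, and intervals on shares are exact Clopper-Pearson intervals at 95% that cover counting error only.

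In scATAC-seq a transposase cuts DNA that is not tightly wrapped around nucleosomes, and each cut fragment carries the barcode of its nucleus. Open sites of this kind are typically promoters, enhancers and other regulatory DNA. The outermost parts of a vertebrate chromosome lead up to the telomere, a repeat array that protects the end of the DNA molecule, and the stretches next to it are called subtelomeres. In male zebrafish meiosis, crossovers fall mostly near chromosome ends, and distal sequence often differs from the interior in base composition and repeats. The windows studied here are anchored on peaks and not on telomeres. The first peak of a chromosome started between positions 581 and 118622 of the danRer11 assembly, and under position 50000 on 21 of 24 chromosomes.

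Peaks were denser near the ends. The 48 end windows held 53.7 peaks per Mb, against 37.9 peaks per Mb in the rest of the same chromosomes, a ratio of 1.42. The first and last peaks anchor the windows and are members by construction. Without these 48 peaks, the end windows held 52.7 peaks per Mb, a ratio of 1.39. Over the 24 chromosomes, the density averaged 53.7 ± 12.7 peaks per Mb in the end windows and 38.0 ± 3.50 peaks per Mb elsewhere (SD over chromosomes). The end windows were denser on 21 chromosomes and less dense on 3, namely chromosomes 3, 13 and 16, where the ratios were 0.861, 0.938 and 0.873. The ratio was highest on chromosomes 1, 11 and 14, at 2.42, 2.10 and 2.04.

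The 48 single ends differed widely among themselves, with 19 to 99 peaks each. Of the 48 ends, 37 were denser than the rest of their chromosome and 11 less dense. Both ends were denser on 13 chromosomes, 1 end on the other 11, and no chromosome had both ends below its interior. The ends with the most peaks were the high-coordinate end of chromosome 11 with 99 peaks and the low-coordinate ends of chromosomes 1, 14 and 21 with 89, 83 and 81 peaks. The low ends of chromosomes 2, 12 and 22 followed with 71 peaks each. The fewest were at the low end of chromosome 7 with 19 peaks, the low end of chromosome 3 with 22 peaks, and the high end of chromosome 2 and the low end of chromosome 16 with 24 peaks each. The high ends of chromosomes 20 and 25 held 31 peaks each. A chromosome could therefore carry a rich and a poor end: on chromosome 2, the low end had 71 peaks and the high end 24.

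**Figure D1:**
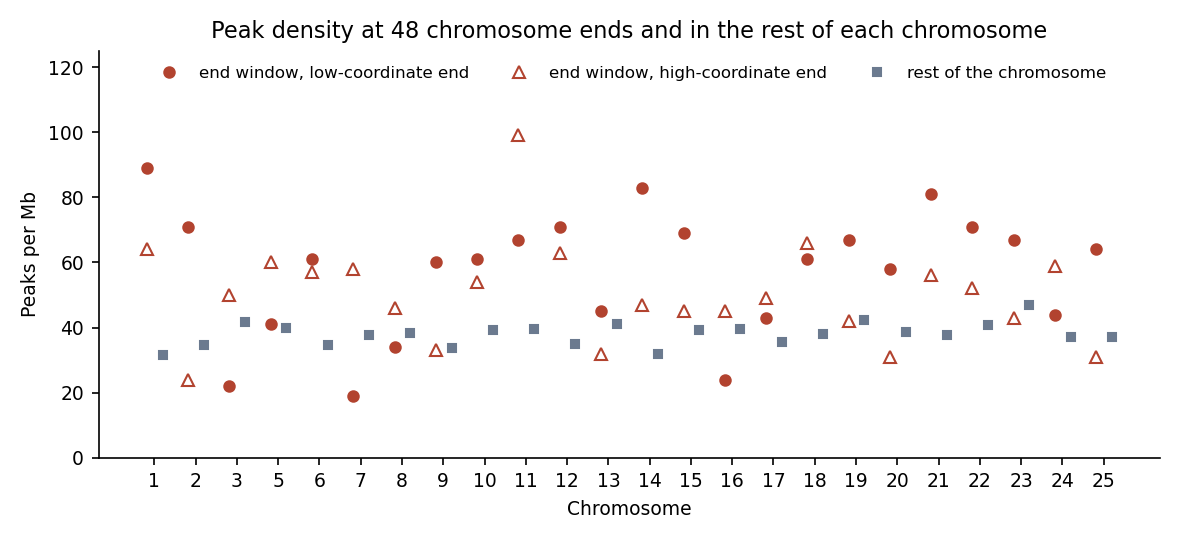
Peaks per Mb (vertical axis) for each of the 24 chromosomes (horizontal axis). Filled circles are the low-coordinate end windows, open triangles the high-coordinate end windows and squares the rest of the chromosome. Of the 48 ends, 37 lie above the square of their own chromosome, and the ends range from 19 to 99 peaks while the squares range from 31.5 to 47.0.

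Low-coordinate ends averaged 57.2 ± 19.2 peaks, and high-coordinate ends averaged 50.3 ± 15.6 peaks (SD, n = 24 ends each), a difference smaller than the spread over ends. The low end had more peaks on 15 chromosomes and the high end on 9. Ends were also set beside 1208 inner windows of the same length. Inner windows held 37.8 ± 18.8 peaks (SD, n = 1208), with a median of 36, and single inner windows reached 115 peaks. Above the inner median of 36 lay 39 of 48 ends. Above the 90th percentile of inner windows, 63 peaks, lay 14 of 48 ends (29.2%), against 9.02% of the inner windows. Those 14 ends comprised 11 low-coordinate and 3 high-coordinate ends. Only 3 of the 1208 inner windows held as many peaks as the high end of chromosome 11.

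The surplus was in the number of peaks and not in their median width. End peaks had a median width of 330 bp, against 323 bp for other peaks, a ratio of 1.02, and widths ran from 200 to 1784 bp in end peaks and from 200 to 1877 bp in other peaks. The end peaks were wider on 11 chromosomes, narrower on 12 and equal on 1. Median width thus did not differ beyond the spread over chromosomes (ratio 1.02 ± 0.0788, SD, n = 24). The widest peaks were an exception to the medians. Peaks of 1000 bp or more numbered 0.813 per Mb in end windows (39) and 0.292 per Mb elsewhere (356), a ratio of 2.78. In the narrower width classes the ratio of densities ran from 1.14 to 1.60. Exactly 200 bp, the smallest width in the matrix, was the width of 8.65% of end peaks (223) and 9.76% of other peaks (4503). Peaks covered 2.03% of the end windows, against 1.40% of the rest. Neighbouring peaks stood closer, with a median gap of 8836 bp between end peaks and 10728 bp between other peaks. As a ratio to mean spacing (median gap times peak density), these gaps were 0.475 for end peaks and 0.406 for other peaks. Relative to their density, end peaks were therefore not more closely bunched by this measure. Gaps under 2000 bp made up 15.7% of gaps in end windows and 11.2% elsewhere. Gaps over 50000 bp made up 8.34% in end windows and 12.3% elsewhere.

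The density fell off within the window itself. In the outer 0.1 Mb there were 75.6 peaks per Mb, or 65.6 without the anchoring peaks. The zones of 0.1 to 0.25 Mb and 0.25 to 0.5 Mb had 58.1 and 60.0 peaks per Mb. Farther in, 0.5 to 0.75 Mb and 0.75 to 1 Mb had 41.6 and 48.3 peaks per Mb. Outside the window, 1 to 1.5 Mb had 39.3 and 1.5 to 2 Mb had 36.7 peaks per Mb. The surplus was therefore greatest in the outer 0.5 Mb, with 62.5 ± 16.3 peaks per Mb, against 44.9 ± 16.97 in the inner 0.5 Mb of the windows and 36.7 ± 8.16 at 1 to 5 Mb (SD, n = 24 chromosomes). The outer 0.5 Mb was denser than the inner 0.5 Mb on 18 of 24 chromosomes, and denser than the zone of 1 to 5 Mb on 23 of 24. The inner 0.5 Mb was denser than 1 to 5 Mb on 15 of 24.

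Density rose again toward the middle of the chromosomes, with 33.0 peaks per Mb at 10 to 15 Mb, 38.3 at 15 to 20 Mb and 43.7 at 20 to 30 Mb. At 30 to 40 Mb it was 51.9 peaks per Mb, but only 4 chromosomes are long enough to contribute. The end windows thus differed most in density from the zone of 3 to 15 Mb. Openness had no such rise: the median was 36 nuclei per peak both at 20 to 30 Mb and at 30 to 40 Mb, against 59 nuclei in the outer 0.1 Mb.

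**Figure D2:**
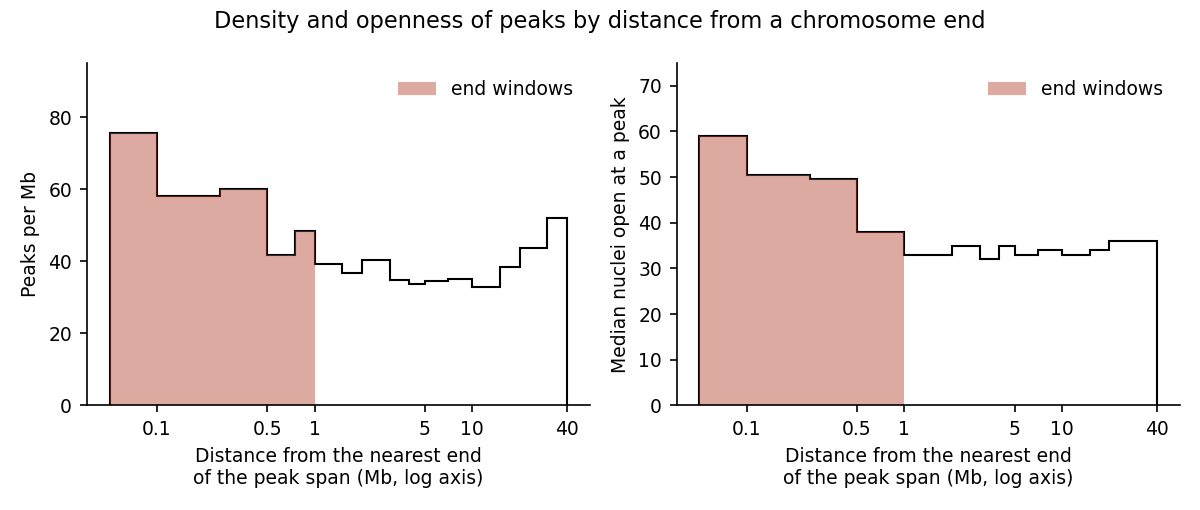
Peaks per Mb (left) and the median number of nuclei open at a peak (right) by distance from the nearest end of the peak span, in Mb on a log axis whose leftmost bin runs from 0 to 0.1 Mb. The shaded steps are the end windows and the open steps the other peaks. Density falls to 39.3 peaks per Mb past 1 Mb, against 75.6 in the outermost bin, and rises again beyond 15 Mb, while openness stays between 32 and 36 nuclei past 1 Mb.

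Pooled over chromosomes, end peaks were open in more nuclei. The median end peak was open in 46 nuclei (1.68% of 2737) and the median other peak in 34 nuclei (1.24%), a ratio of 1.35. The quartiles were 19 and 105 nuclei for end peaks and 16 and 82 nuclei for other peaks. The mean was 87.8 nuclei for end peaks and 73.7 nuclei for other peaks, a ratio of 1.19. Over chromosomes the ratio of medians was 1.32 ± 0.338 (SD, n = 24), with end peaks more open on 20 chromosomes, equal on 3 and less open on chromosome 3 alone (37 against 39 nuclei). By means, the ratio was 1.18 ± 0.250 (SD, n = 24), with end peaks more open on 19 chromosomes and less open on 5. Within 1 SD both ratios include a ratio of 1, so the difference in openness lay within the spread over chromosomes, though most chromosomes had the same direction. Of the 48 ends, 41 had a median above 34 nuclei, 6 below and 1 equal. The high end of chromosome 11, which had the most peaks, also had the highest median, 97 nuclei (3.54%), and the low end of chromosome 7, which had the fewest, had the lowest, 24 nuclei (0.877%). Across all 48 ends, however, number of peaks and median openness were only weakly related (Spearman's rho 0.188, Pearson's r 0.344, as a description: the ends share all nuclei).

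Openness followed the same gradient as density. The median was 59 nuclei in the outer 0.1 Mb, 50.5 at 0.1 to 0.25 Mb, 49.5 at 0.25 to 0.5 Mb, 38 in both zones from 0.5 to 1 Mb, and 33 from 1 to 2 Mb. The outer 0.5 Mb had a higher median than the inner 0.5 Mb on 19 of 24 chromosomes and a higher median than 1 to 5 Mb on 21 of 24. The inner 0.5 Mb was higher than 1 to 5 Mb on 14 chromosomes, lower on 9 and equal on 1. Those medians averaged 36.6 ± 10.9 and 34.0 ± 5.13 nuclei (SD, n = 24), a difference within the spread. Peaks open in at least 10% of nuclei made up 7.66% in the outer 0.5 Mb, 4.45% in the inner 0.5 Mb and 5.44% at 1 to 5 Mb. The surplus of openness thus lay mainly in the outer 0.5 Mb. At the limit of 1 Mb, the 48 peaks just inside were open in 6 to 186 nuclei, with a median of 42.5. The 48 peaks just outside were open in 1 to 395 nuclei, with a median of 23. The inside peaks lay at 742078 bp or more from the end and the outside ones at up to 1396590 bp. Their median widths were 357.5 bp inside and 325.5 bp outside. With 1 peak on each side per end, these medians differ more than those of the zones next to the limit, 38 and 33 nuclei. The outermost peak of each end was open in 1 to 452 nuclei, with a median of 58 nuclei (2.12%), and 34 of the 48 were open in at least 1% of nuclei. The most open of them, chr18:11401-12405, was open in 452 nuclei (16.5%), and the least open, chr7:2259-2459, in 1 nucleus. The last peaks of a chromosome in the matrix were thus not, as a set, at the bottom of the range of openness.

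Pooled over chromosomes, the surplus was made of peaks of middle and high openness more than of rare ones. The share of peaks open in at least 10% of nuclei was higher in the end windows on 14 chromosomes and lower on 10. Its ratio was 1.18 ± 0.634 (SD, n = 24), so it did not differ beyond the spread over chromosomes. Peaks open in 5% of nuclei or more numbered 10.6 per Mb in the end windows and 5.43 per Mb elsewhere, a ratio of 1.96. Peaks open in under 1% of nuclei numbered 19.2 per Mb in the end windows and 16.1 per Mb elsewhere, a ratio of 1.19. By class, the ratio of densities was 1.25 for peaks open in up to 9 nuclei, 1.17 for 10 to 27, 1.31 for 28 to 54, 1.62 for 55 to 136, 2.10 for 137 to 273 and 1.71 for 274 or more nuclei. At the very top the end peaks held no larger share: 0.931% of end peaks (24) and 0.974% of other peaks (449) were open in at least 20% of nuclei. The most open end peak reached 40.6% of nuclei, whereas the most open other peak reached 60.8%. At the bottom, 1 end peak and 11 other peaks were open in 0 nuclei, which allows a share of up to 0.110% of nuclei for each (3 counts of 2737, a floor other than the Clopper-Pearson limit).

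**Figure D3:**
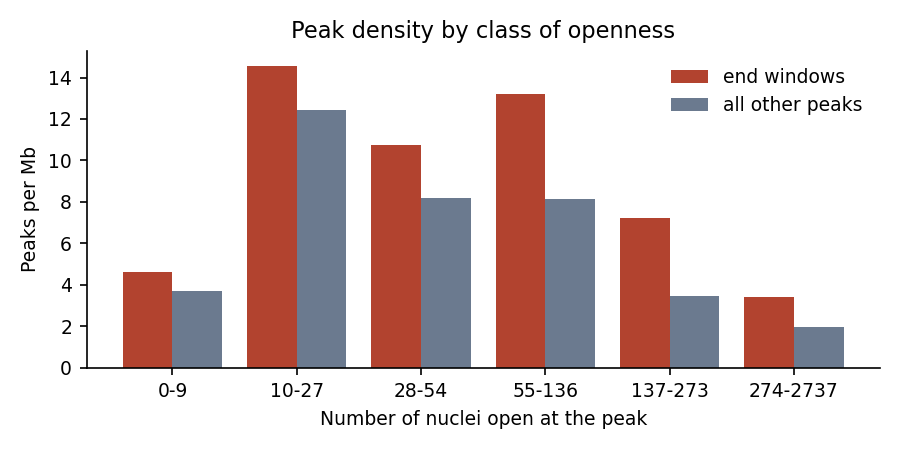
Peaks per Mb (vertical axis) in 6 classes of openness, given as the number of nuclei open at the peak (horizontal axis), in the end windows (left bars) and among all other peaks (right bars). The end windows are denser in every class, by 2.10 times for peaks open in 137 to 273 nuclei and by 1.17 times for peaks open in 10 to 27.

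Wider peaks were open in more nuclei in both sets, so openness was also compared at equal width. With other peaks reweighted to the widths of the end peaks, the medians were 46 nuclei for end peaks and 36 nuclei for other peaks, a ratio of 1.28. End peaks had the higher median in 8 of 9 width classes. For peaks of 300 to 399 bp, the medians were 54 nuclei (537 end peaks) and 40 nuclei (10710 other peaks). For 800 to 899 bp, the exception, they were 212.5 nuclei (34 end peaks) and 238 nuclei (627 other peaks).

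Together, density and openness gave the end windows 6.25% of all open calls on the 24 chromosomes, from 3.79% of the length and 5.30% of the peaks. An open call is 1 peak scored open in 1 nucleus. A nucleus had on average 1.72 open calls per Mb of end window and 1.02 per Mb elsewhere.

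The 15 end peaks open in the most nuclei lay on 12 chromosomes and were 647 to 1351 bp wide. First among them was chr22:335608-336569, open in 1112 nuclei (40.6%, interval 38.8 to 42.5) and ranked 15th of all peaks. Next came chr8:10711-11537, open in 1065 nuclei (38.9%), whose midpoint lies 9933 bp from the first peak start of the chromosome. The third was chr10:45345348-45346358, open in 1021 nuclei (37.3%). Broadly open sites thus occurred close to the ends of the peak span. Within 100 kb of the end of the peak span lay 363 of all 2579 end peaks and 5 of these 15. The closest to the end of its peak span was chr16:67454-68805, open in 894 nuclei (32.7%), at an end that held only 24 peaks. The first peak of that chromosome starts at position 65137.

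Chromosome 22 gave a second member, chr22:785970-786970, open in 789 nuclei (28.8%), and its low end held 15 peaks that 10% of nuclei or more had open, the most of any end. On 4 ends there was none: the high ends of chromosomes 2 and 9 and the low ends of chromosomes 3 and 7. These 4 ends held 24, 33, 22 and 19 peaks, and the low end of chromosome 22 held 71. Peaks that open made up 6.32% of all end peaks and 5.24% of other peaks. Counts per end depend on how many peaks the end holds, and unevenness beyond that was not tested.

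**Figure D4:**
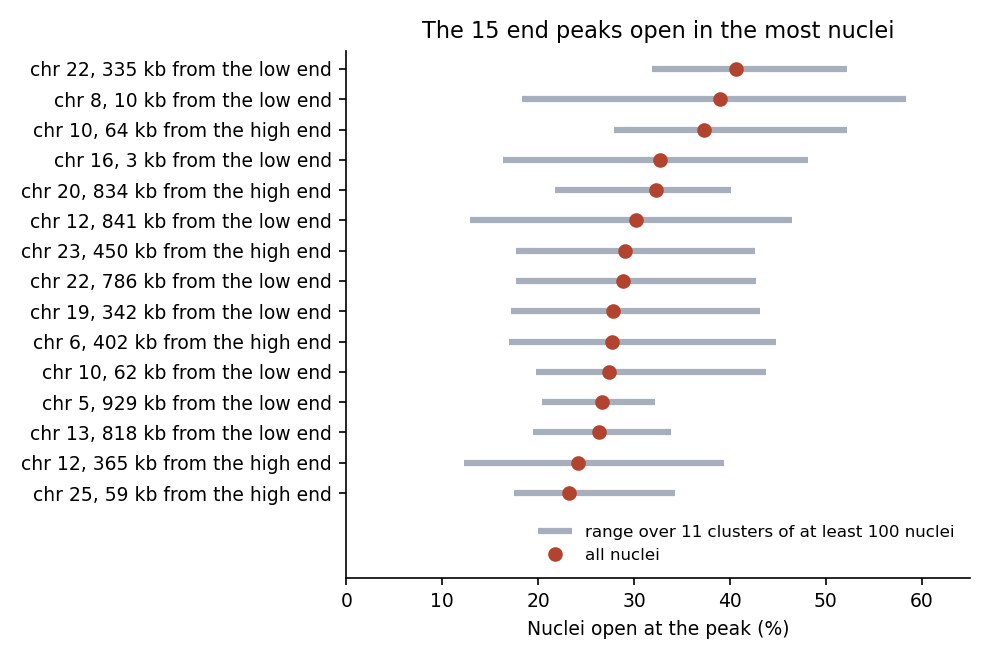
Percent of nuclei open at the 15 end peaks open in the most nuclei, each named by its chromosome and the distance of its midpoint from the end of the peak span. Points are all 2737 nuclei and bars run from the lowest to the highest of 11 clusters. All 15 were open in every one of these clusters, and the bars span 18.4% to 58.4% at the peak of chromosome 8. The percents are not corrected for the number of open peaks per nucleus. At that peak the lowest cluster, 8, had a median of 688 open peaks and the highest, 4, a median of 928.

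To see how end peaks were spread over kinds of nuclei, nuclei were clustered without using any end peak. This gave 15 clusters, 11 of them with at least 100 nuclei (2527 nuclei, 92.3%), numbered from the largest. The clusters carry no cell type name, since gene positions of this build were not used here, and the label of nonCMs was not checked against marker genes. End peaks had a higher mean openness than other peaks in all 15 clusters, with ratios of 1.1 to 1.41 in the 11 large ones. The surplus of openness was therefore seen in every cluster, and its size differed between them.

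Among the 11 clusters with at least 100 nuclei, end peaks took the largest share of open calls in cluster 4, 7.30% (interval 7.20 to 7.39, 274 nuclei). Clusters 8 and 2 followed with 6.96% (6.81 to 7.12) and 6.86% (6.76 to 6.95), whose intervals overlap. Of the smaller clusters, cluster 12 had 7.11% (6.95 to 7.28, 93 nuclei) and cluster 15 had 7.03% (6.68 to 7.39, 18 nuclei). Both of these intervals overlap that of cluster 4. Clusters 13 and 14 had 6.59% and 5.92%. Clusters 1, 10, 6 and 9 had the smallest shares, 5.85%, 5.82%, 5.80% and 5.80%, with overlapping intervals. Clusters with a high share had fewer open peaks per nucleus: the median was 928 open peaks in cluster 4, 688 in cluster 8 and 682 in cluster 2, against 1352 in cluster 1 and 1701 in cluster 9. Over the 11 clusters Spearman's rho of median depth and end share was -0.927, a description over clusters that share libraries. Within clusters the relation had no single direction, with the shallower nuclei higher in 5 of 11 clusters. Its part in the differences between clusters was not tested.

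Because more open peaks are commoner near the ends, the share was also set beside the value expected from 20 classes of openness of the calls in each cluster. Expected shares ran from 6.02% to 6.49%, a narrower range than the observed 5.80% to 7.30%. Observed over expected was highest in cluster 4, at 1.12, and lowest in cluster 6, at 0.916.

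**Figure D5:**
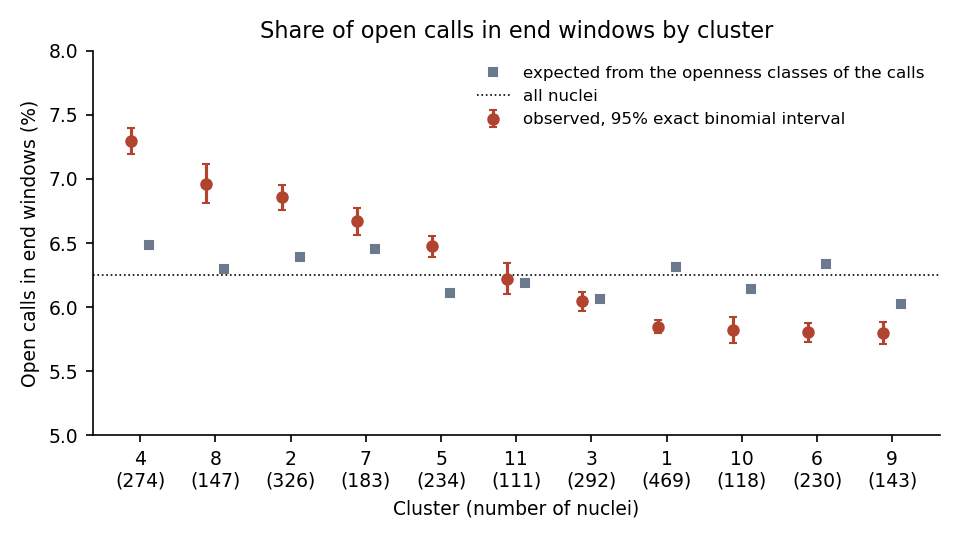
Percent of open calls that lie in end windows (vertical axis, starting at 5%) in each of the 11 clusters with at least 100 nuclei (horizontal axis, nuclei in parentheses). Circles are observed shares with exact binomial intervals, squares the shares expected from the openness classes of the calls, and the dotted line all nuclei at 6.25%. Observed shares run from 7.30% in cluster 4 to 5.80% in cluster 9, and expected shares span less.

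Single ends did not all follow the order of the clusters. Relative to all nuclei, cluster 4 gave a larger share of its calls to 32 of the 48 ends and a smaller share to 16. It was highest at the high end of chromosome 25, with 1.74 times the share in all nuclei, and lowest at the high end of chromosome 7, with 0.527 times. Cluster 8 was above 1 at 34 ends and reached 2.00 times at the high end of chromosome 13. Cluster 5 was above 1 at only 22 ends but reached 1.96 times at the low end of chromosome 15. Cluster 4 led the most ends, 14 of 48, and clusters 8 and 5 led 11 and 10. The low end of chromosome 21 varied least over clusters, between 0.859 and 1.14 times its share in all nuclei.

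Individual end peaks were a little less particular to 1 cluster than other peaks. This was measured where a peak was open in 55 or more nuclei (2%). The rate was the open calls of the peak over all open calls, and only the 11 clusters with at least 100 nuclei were used. At the median, the rate in the leading cluster was 2.22 times that in all nuclei of these clusters for the 1144 end peaks. For the 16527 other peaks it was 2.38 times. The ratio of these medians, 0.933, was below 1 on 20 of 24 chromosomes (SD 0.0583). A lead of at least 3-fold was held by 21.7% of end peaks and 26.1% of other peaks. Within classes of openness the medians were 2.49 (end) and 2.66 (other) at 55 to 136 nuclei, 2.08 and 2.20 at 137 to 273, and 1.91 and 1.93 at 274 or more. Cluster 4 was the leading cluster of 20.1% of end peaks and 15.2% of other peaks, and cluster 8 of 14.0% and 10.9%. Clusters were made without end peaks, so other peaks were scored on a partition they had helped to set. As an alternative, clusters came from odd-numbered or even-numbered chromosomes and peaks of the rest were scored. With clusters from odd-numbered ones, the ratio was 0.929, and 18.3% of end and 24.3% of other peaks had 3-fold leads. From even-numbered ones these were 0.953, 19.2% and 20.8%. At 274 or more nuclei, the latter shares turned, to 2.41% and 1.98%.

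Some end peaks were open mostly in 1 cluster. The 8 with the largest lead, picked after their values were seen, were all led by cluster 5, and are given as a description. They were open in 19.7% to 29.9% of the nuclei of cluster 5 and in 0.320% to 1.32% of the other nuclei. At chr1:58793233-58793572, 54 of 234 nuclei of cluster 5 (23.1%) were open, against 8 of 2503 other nuclei (0.320%). At chr15:47668556-47669020, the count outside was among the highest of the 8, with 50 of 234 nuclei (21.4%) in cluster 5 and 33 of 2503 (1.32%) elsewhere. The median depth was 1283.5 open peaks in cluster 5 and 1131 in the other nuclei of the whole matrix. Of the 8, 3 lay between positions 58793233 and 58808131 of chromosome 1, a stretch that also holds another end peak. Cluster 5 also had the most leads of at least 3-fold among other peaks: such leads made up 5.24% of end peaks and 4.73% of other peaks, so leads by cluster 5 were common in both sets.

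The share of open calls in end peaks also varied more over nuclei than that of other zones. Its median was 6.29% per nucleus, with a 5th to 95th percentile of 4.83% to 8.12%. The SD was 1.01%, against 0.770% from binomial sampling at the depth of each nucleus, a variance ratio of 1.82 (chi-square interval 1.72 to 1.92). That interval treats nuclei as independent draws and covers no spread between libraries or fish. The zone of 10 to 12 Mb, with a like number of calls (227772, against 226488 for end peaks), had a variance ratio of 1.099, and that of 1 to 3 Mb (276986 calls) 1.27. Within clusters the ratio for end peaks was 1.25, against 1.14 for 1 to 3 Mb and 1.03 for 10 to 12 Mb. Every nucleus had some open end peak, with a median of 72 and a range of 3 to 680. This was not particular to the ends, since every nucleus also had an open peak at 1 to 2 Mb and at 10 to 11 Mb. In 4 equal groups of nuclei by depth, shallow to deep, the end share was 6.57%, 6.57%, 6.31% and 6.01%.

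A few end peaks stood in dense groups. With peaks under 5000 bp apart joined, 1274 end peaks stood alone and 25 stretches held at least 5 end peaks, 157 peaks in all (6.09%). The same count was not made for other peaks, so it does not show if such stretches are commoner near the ends than the higher density gives. The stretch with the most peaks spans chr11:44698293-44741033, with 16 peaks open in 22 to 344 nuclei and a median of 126.5. Its most open peak is chr11:44722818-44723332, open in 344 nuclei (12.6%). The stretch was open in all 11 large clusters, at 0.498 calls per 1000 open calls in cluster 1 up to 0.815 in cluster 8. The stretch with the next most peaks, 9 at chr14:124304-145432, was open in 4 to 68 nuclei per peak, with a median of 32.

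Joint opening of neighbouring peaks was compared next. For pairs of peaks 1000 to 20000 bp apart, joint openings were counted over nuclei and divided by those expected from depth and from how often each peak was open in each cluster. This ratio was 1.102 for 1130 pairs of end peaks and 1.124 for 12342 pairs of other peaks. End pairs were higher on 9 of 24 chromosomes, a difference within the spread over chromosomes (SD 0.0707 for end pairs). The direction differed by distance. At 1000 to 5000 bp the values were 1.16 for end pairs and 1.155 for other pairs, with end pairs higher on 15 of 24 chromosomes. At 5000 to 10000 bp they were 1.11 for end pairs and 1.125 for other pairs, with end pairs higher on 11 of 24. At 10000 to 20000 bp they were 1.07 for end pairs and 1.105 for other pairs, with end pairs higher on 8 of 24. Each of these differences was smaller than the SD over chromosomes of end pairs. The same measure for whole ends was 1.008 ± 0.0201 for the 2 ends of 1 chromosome (SD, n = 24) and 1.005 ± 0.0211 for ends of different chromosomes (SD, n = 1104 pairs), so the ends of 1 chromosome did not open together more than ends of different chromosomes beyond that spread.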

How the data were processed

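Nuclei of nonCMs were profiled by scATAC-seq with the 10X Genomics protocol at 4 time points. Per the submitters' processing notes, Cell Ranger ATAC, FastQC and the build danRer11 were used. Per the methods of the study, nuclei of all time points were merged and analysed with SnapATAC after a filter on UMIs, cardiomyocyte and putative doublet clusters were dropped, and sub-clusters were used for peak calling with MACS. It is not said if the matrix uses those peaks. Versions are not given in the sources used here.

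In the deposited matrix, nuclei are rows, peaks are columns and each value is 0 or 1. These binarized calls by the authors carry no read depth, so depth here means how many peaks were open in a nucleus. Rows could be mapped to 0 of the 4 samples, and all nuclei formed 1 sample. No doublet caller was run. Coordinates are those of the matrix and width is end minus start.

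Chromosome length was taken as the span between first and last peak. Clustering used peaks open in at least 10 nuclei outside the end windows, TF-IDF weights, truncated singular value decomposition (15 components, after leaving out 1 that followed depth), 15 neighbours and the Leiden algorithm at resolution 1. Joint opening used peaks open in at least 50 nuclei. Expected end shares took, in each of 20 classes of openness, the share of calls in end peaks over all nuclei. The scripts were tested on simulated data, with Python 3.11.15, numpy 2.4.6, scipy 1.17.1, scikit-learn 1.9.0 and leidenalg 0.10.2. Clusters can arise without distinct groups of nuclei and are used as a partition only.

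The members, lists and alternatives were chosen with earlier results of these data known. Named peaks are the 15 end peaks open in the most nuclei, outermost peaks of named ends, the 5 ends with the most and the 5 with the fewest peaks with ties, and peaks next to the 1 Mb limit; other named peaks and the stretches were chosen after their values were seen.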

Additional observations from a re-analysis of the deposited data

How the results depend on the processing

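Density, width, openness, the gradient from the ends and cluster specificity moved by less than 1 SD over chromosomes under every alternative run. That limit is wide, with SDs of 0.406 for density, 0.338 for openness and 0.675 for the gradient. For the gradient it includes a ratio of 1, so staying within it does not show that a result is stable. Density ratios ranged from 1.21 (windows of 2000000 bp) to 1.65 (windows of 500000 bp), openness ratios from 1.14 (peaks open in at least 1% of nuclei) to 1.53 (windows of 500000 bp), specificity ratios from 0.929 to 0.971, and the density of the outer over the inner 0.5 Mb from 1.35 to 1.63, with a value of 1.39 as reported. The width ratio ranged from 0.993 (peaks open in at least 1% of nuclei), where its direction turned, to 1.04. The variance ratio over nuclei, 1.82 as reported, was judged against its narrower chi-square interval of 1.72 to 1.92, and was the quantity that moved. Since that interval treats nuclei as independent draws, it is a yardstick for these shifts only. It was 1.93 with windows of 500000 bp, 1.66 for peaks open in 1% of nuclei or more, 1.70 without the high end of chromosome 11, 1.30 against peaks 1 to 5 Mb from an end, 1.66 with other peaks reweighted to the widths of end peaks, and 1.25 within clusters. The cause of these shifts was not tested. With chromosome 4 included the ratios were 1.45 for density and 1.32 for openness. The within-cluster value, the first and last peaks left out, means in place of medians, the clusters made on odd-numbered or even-numbered chromosomes and all alternatives for the gradient were added after the data were seen.

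Promoter shares, gene density, base composition, motifs, cell type markers, windows anchored on assembled chromosome ends and reweighting by base composition were not run, as no genome or annotation of danRer11 was used here. No paired analysis was possible because the matrix ties no nucleus to a sample. With 1 pooled sample, differences between time points and libraries cannot be told apart from differences between nuclei, and single peaks open in few nuclei have wide counting intervals.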

Other observations

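The rows of the matrix fall into 4 runs of 430, 715, 748 and 844 nuclei in which barcodes start over in order. The labels do not tie these runs to time points, so they are given as values only. The end share of open calls was 6.01%, 6.18%, 6.32% and 6.44% in the 4 runs, and the median openness of end peaks over that of other peaks was 1.40, 1.30, 1.27 and 1.29. Those medians rest on few nuclei, in run 1 on 1.63% and 1.16% of 430. By mean openness the ratios were 1.14, 1.18, 1.21 and 1.23, so run 1 was highest by medians and lowest by means. In each of the 4 runs cluster 4 had the highest end share among the clusters compared, at 7.21%, 7.39%, 7.31% and 7.23%. Compared were those of the 11 large clusters with at least 20 nuclei in the run, 5, 9, 11 and 9 clusters. Cluster 8 was not among them in runs 1 and 2, where it had 2 and 8 nuclei. Cluster 4 itself had 26 nuclei in run 1. Median depth in the runs was 1339, 1253, 1197 and 868 open peaks. Of the 15 end peaks open in the most nuclei, 14 had their lowest share of nuclei in the fourth run, the shallowest, and 13 their highest in the third. All end peaks had a mean of 3.52%, 3.45%, 3.70% and 2.41% of nuclei in the 4 runs. Other peaks were also least open in the fourth run, with a mean of 1.96% of nuclei, against 3.08%, 2.93% and 3.07% in runs 1, 2 and 3. The low share in the fourth run was therefore not particular to these 15 peaks. The same count was not made over all peaks.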
